A study of Mus musculus with 4 samples.

Results

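Spermatids stop transcribing their genes long before they finish remodelling into sperm. Messages for sperm proteins are therefore made early, kept in the cytoplasm bound to protein, and released for translation days later. The genes described here encode 9 RNA-binding and translation factors of this storage and release: YBX2, YBX3, DDX25, PAPOLB, ADAD1, CNBP, BOLL, EIF4E and PABPC1. They were chosen by name and not by their values. All 9 were listed in each of the 4 count tables, among 25824 gene symbols in all.

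Single cell RNA-seq had been carried out on cells dissociated from the testes of 2 WT and 2 Ctcf-cKO mice. The labels number the mice, so WT replicate 1, WT replicate 2, Ctcf-cKO replicate 1 and Ctcf-cKO replicate 3 is the order in which 4 values are given throughout. WT mice are labelled Ctcf wt/wt, whereas the methods describe control littermates that could also carry floxed Ctcf. Ctcf-cKO mice are labelled Stra8-iCre-Ctcf f/Δ, so that 1 allele is deleted and the floxed one is removed by a Cre driven by the Stra8 promoter, which is active in germ cells from spermatogonia onward. Labels give every mouse the background C56BL/6J and an age of 15 weeks. Cells were captured in ddSEQ droplets and sequenced from the 3′ end of their messages. Filtrates of more than 1 tube were pooled for the Ctcf-cKO preparation.

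YBX2 and YBX3 are Y-box proteins, which coat stored messages and, in the nucleus, bind Y-box promoter elements. CNBP is a zinc-finger protein that binds single-stranded nucleic acids and associates with translating ribosomes. DDX25 is a testis-specific DEAD-box helicase that carries messages out of the nucleus and into storage particles. ADAD1 is a testis-specific protein with a double-stranded RNA binding domain. BOLL belongs to the DAZ family of translation activators of germ cells. PAPOLB is a cytoplasmic poly(A) polymerase of spermatogenic cells, PABPC1 binds poly(A) tails, and EIF4E binds the 5′ cap and recruits the ribosome.

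The best known target of the Y-box proteins is the protamine 1 message. Its 3′ UTR holds a Y-box recognition sequence, TCCATCA in DNA letters, starting at base 18 of 158. The site is shown because it is one that the Y-box proteins are known to bind in a stored message. Capitals mark those 7 bases, within chr16:10796449-10796477 of GRCm38 on the reverse strand.
PRM1: agaatagcaagTCCATCAaaactcctgcg
The same letters lay somewhere in the 3′ UTR of 3 of 21 messages listed here as stored (PRM1, ACR and CLGN). Among 18382 genes with a 3′ UTR of at least 158 bases, 1.45% held them in the first 158 bases. That share compares with PRM1 alone, since the UTR of ACR is 157 bases long and the match in CLGN starts at base 607.

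Promoters of 7 of the 9 genes were found in the RefSeq table of GRCm38.p6, which spans 250 bases before to 50 after each start. CCAAT, the letters at the core of the Y-box element, was searched on both strands. It occurred in at least 1 promoter of 6 of these genes (YBX2, DDX25, PAPOLB, CNBP, BOLL and EIF4E) and in none of YBX3. A stretch of 3 promoters is shown, since Y-box proteins bind this element and these 3 genes act on the stored messages. Capitals mark CCAAT or its complement ATTGG, and each stretch is written on the strand of its gene, upstream of the RefSeq start. For DDX25 that start lies inside the gene as GENCODE draws it, so its stretch is not upstream of the GENCODE start.
YBX2, chr11:69935739-69935795, +: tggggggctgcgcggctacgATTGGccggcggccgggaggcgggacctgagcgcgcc
PAPOLB, chr5:142530117-142530176, -: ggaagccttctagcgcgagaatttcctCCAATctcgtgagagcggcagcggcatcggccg
DDX25, chr9:35558471-35558500, -: cgccggtcccggagcctgaccATTGGccac
CCAAT on either strand occurred in 37.4% of all 32851 promoters, so its presence is common. That share is by promoter, whereas the count of 6 is by gene. Start 2 of YBX2 and start 1 of BOLL and of EIF4E had no match. The short cyclic AMP response element TGACG, found in 20.8% of all promoters, occurred only in 1 of EIF4E, and the core of the CTCF motif, found in 1.28%, in none of the 7 genes.

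In GRCm38 (GENCODE M21) YBX2 lies at chr11:69935796-69941605, YBX3 at chr6:131364855-131388476, CNBP at chr6:87842615-87851106 and DDX25 at chr9:35536647-35558528. ADAD1 lies at chr3:37063527-37121930, BOLL at chr1:55248658-55363469, EIF4E at chr3:138526179-138559696 and PABPC1 at chr15:36595661-36609668. PAPOLB, at chr5:142525838-142530076, has 1 exon and its span overlaps that of Radil on the same strand. Overlap of their exons was not checked, so whether reads of both genes can be told apart there is not known. ADAD1 overlaps Gm12582, Gm12583 and Gm12584 on its own strand and Il2 on the other. BOLL overlaps Gm8292 on the other strand, and the small RNA genes Gm22362 and Mir1956 lie within YBX3 and EIF4E. The last 500 bases of the longest coding transcript of each gene, near which 3′ reads fall, matched no transcript of another gene at 95% identity or more over 100 bases.

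Cells had 200 to 7000 genes, at most 10% of mitochondrial counts, and at least 3 times the median count of the plateau of near-empty barcodes in their library. This left 96, 241, 228 and 246 cells with median counts of 15357, 8251, 4668 and 2338, so both Ctcf-cKO libraries were shallower than both WT libraries. CTCF itself had 110, 49, 4 and 7 counts over all barcodes, in libraries of 6701235, 4859455, 2652665 and 1593546 counts. Clusters of the 811 cells, made without the 9 genes and without the list of related factors, were named by marker genes. Spermatocyte-like cells numbered 5, 31, 14 and 9, round spermatid-like cells 16, 138, 37 and 12, and elongating spermatid-like cells 59, 22, 69 and 90. Somatic-like cells (Sertoli, Leydig, macrophage, peritubular and fibroblast) numbered 10, 8, 84 and 110, and 97 cells in a cluster led by MAD2L2 and PDK3 were left unnamed. Cluster 1 of the elongating class was led by HBB-BS, a haemoglobin gene, and then by TNP2. Between 12 and 31 cells per library shared a barcode with another library, and only 1 of these was larger in the other. Levels are given as CPM, the counts of a gene in a class of a mouse scaled to a total of 1000000, and they compare classes or mice for the same gene, not different genes. Over all barcodes CTCF was at 16.4, 10.1, 1.51 and 4.39 CPM. It had 0, 15, 0 and 0 counts in spermatocyte-like, 6, 6, 0 and 4 in round and 13, 0, 0 and 0 in elongating spermatid-like cells. These are too few to show its loss by class.

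**Figure D1:**
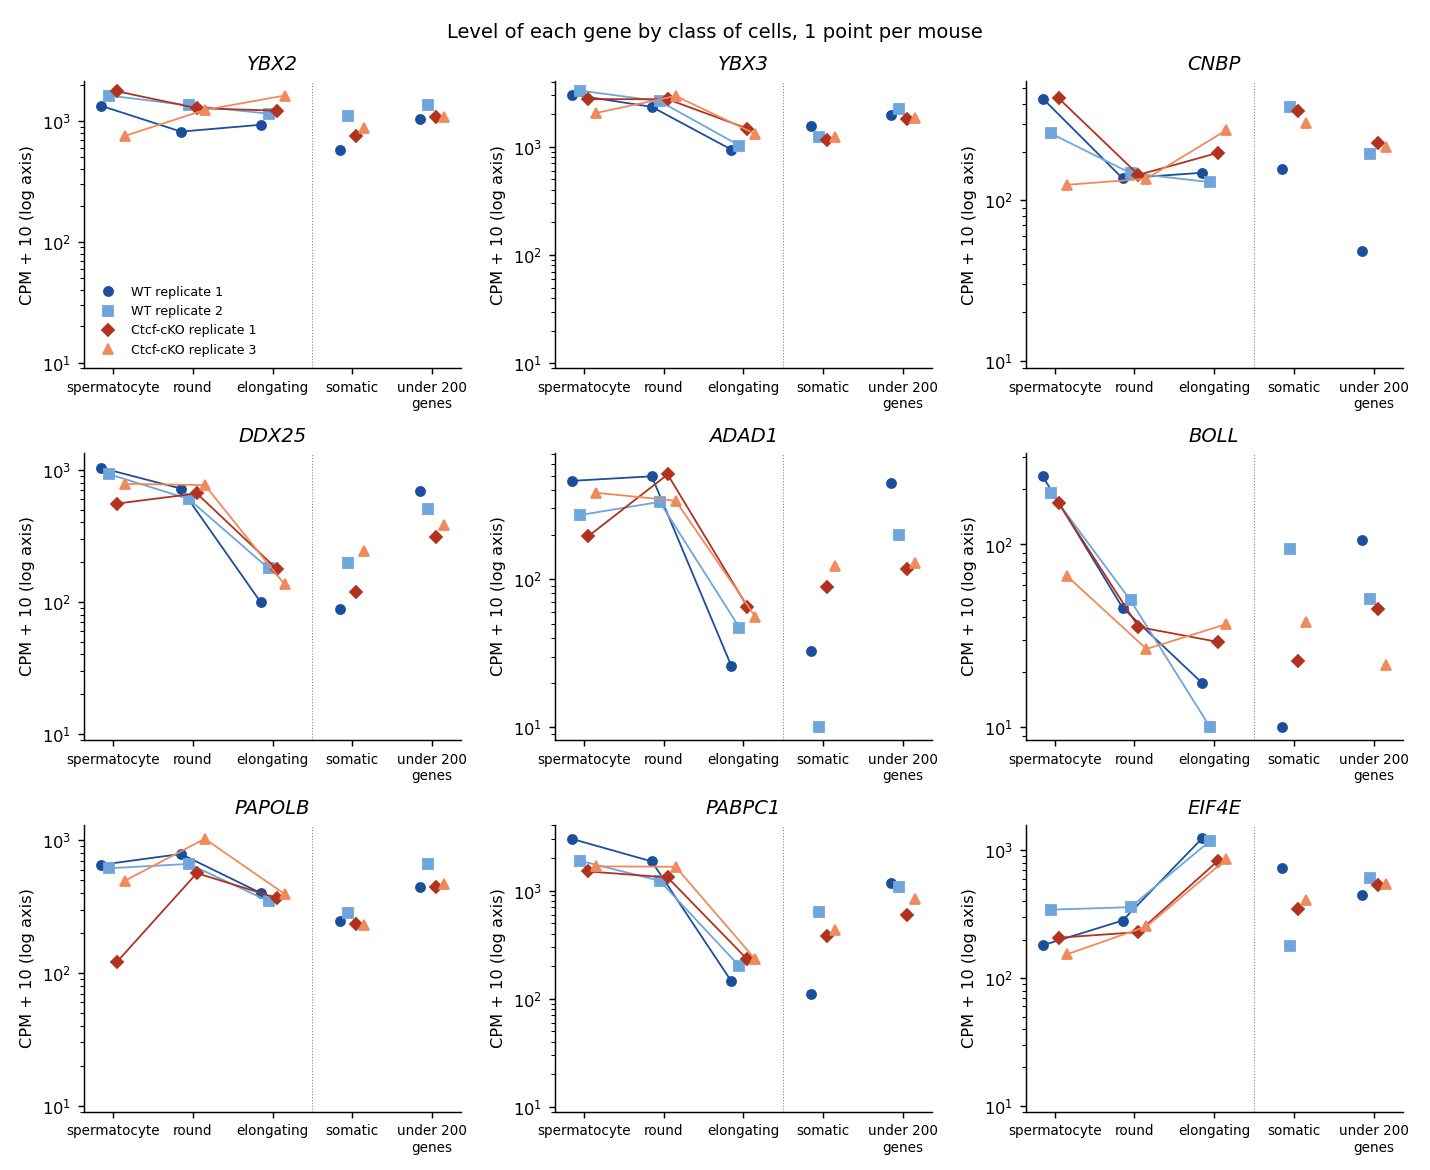
Level of each gene (CPM + 10, log axis) in spermatocyte-like, round and elongating spermatid-like and somatic-like cells and in barcodes under 200 genes, with 1 point per mouse and lines joining the germ classes of a mouse. PABPC1, DDX25 and ADAD1 lie lowest among the germ classes in elongating cells of all 4 mice, and EIF4E lies highest there.

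From round to elongating spermatid-like cells, 5 of the 9 genes were lower in 4 of 4 mice (ADAD1, PABPC1, DDX25, YBX3 and PAPOLB), 1 was higher in 4 of 4 (EIF4E), and YBX2, CNBP and BOLL differed in direction between mice. Of 5745 genes with enough counts, 47.0% were lower and 12.3% higher in all 4 mice, with a median difference of -0.79, so a lower level in elongating cells was the usual one. Differences are within a mouse, in log2(CPM + 10), as mean ± SD over 4 mice, and carry no test because the classes were drawn from the same cells.

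YBX2 was read at a similar level in every germ class. It had 1329, 1618, 1756 and 746 CPM in spermatocyte-like cells, 809, 1340, 1270 and 1228 in round, and 922, 1143, 1211 and 1619 in elongating spermatid-like cells. The elongating minus round difference was 0.07 ± 0.28, higher in 2 mice and lower in 2. Somatic-like cells, where this germ cell gene is not expected to be transcribed, still held 564, 1086, 744 and 859 CPM, and barcodes under 200 genes, which carry free RNA, held 1029, 1347, 1076 and 1067. Both ranges overlapped with those of the germ classes.

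YBX3 had 3023, 3292, 2742 and 2037 CPM in spermatocyte-like cells and 2324, 2622, 2736 and 2936 in round spermatid-like cells, and these classes overlapped. Elongating spermatid-like cells had 931, 1015, 1462 and 1303 CPM, below every round spermatid-like value. The elongating minus round difference was -1.18 ± 0.21, lower in 4 of 4 mice. CNBP had 420, 251, 421 and 115 CPM in spermatocyte-like cells. In round spermatid-like cells it had 127, 138, 134 and 126 CPM, a narrow range that was below the spermatocyte value in 3 of 4 mice. The exception, Ctcf-cKO replicate 3, had a spermatocyte-like sum of only 34855 counts from 9 cells. Its value there is imprecise for CNBP, and for EIF4E below. Elongating cells had CNBP at 138, 120, 188 and 263 CPM, a difference from round cells of 0.35 ± 0.51.

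DDX25, the helicase, had 1026, 918, 546 and 775 CPM in spermatocyte-like cells and 712, 591, 654 and 757 in round spermatid-like cells. In elongating cells it had 89.7, 169, 168 and 126 CPM, and no mouse overlapped with any round value. The difference was -2.25 ± 0.52, lower in 4 of 4 mice. ADAD1 showed the largest difference of the 9 genes. It had 451, 261, 184 and 373 CPM in spermatocyte-like, 485, 322, 499 and 328 in round and 15.9, 37.1, 55.2 and 45.7 in elongating spermatid-like cells, an elongating minus round difference of -3.16 ± 0.75.

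BOLL was lower already in round spermatid-like cells. Its 225, 182, 158 and 57.4 CPM in spermatocyte-like cells compared with 35.1, 39.5, 25.4 and 16.8 in round spermatid-like cells, a difference of -1.98 ± 0.47, lower in 4 of 4 mice. Only 3.74% of the genes compared had a lower mean difference at that step. These were 29, 90, 24 and 2 counts in spermatocyte-like cells, so the value of Ctcf-cKO replicate 3 is imprecise. In elongating cells it had 8, 0, 7 and 7 counts. The 0 counts of WT replicate 2 allow up to 12.4 CPM, and the other mice had 7.47, 19.3 and 26.7 CPM.

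PAPOLB, the poly(A) polymerase, had 645, 607, 112 and 488 CPM in spermatocyte-like cells and 780, 655, 557 and 1018 in round spermatid-like cells, higher in round cells in 4 of 4 mice by 0.91 ± 0.96. The spermatocyte-like value of Ctcf-cKO replicate 1 lay far below those of the other mice. Elongating cells had 391, 338, 359 and 385 CPM, a narrow range, and were lower than round cells in 4 of 4 mice by 0.98 ± 0.31 in size. PABPC1, the poly(A) tail binding protein, had 2992, 1875, 1493 and 1664 CPM in spermatocyte-like and 1850, 1221, 1312 and 1649 in round spermatid-like cells. In elongating cells only 135, 190, 221 and 221 CPM were left, a difference of -2.92 ± 0.53, and no mouse overlapped with the round values. Barcodes under 200 genes held PABPC1 at 1172, 1059, 583 and 832 CPM, DDX25 at 686, 498, 300.6 and 370 CPM and ADAD1 at 438, 188, 106 and 119 CPM. Elongating cells of every mouse were below these for all 3 genes.

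EIF4E went the other way. It had 171, 334, 197 and 144 CPM in spermatocyte-like cells and 272, 349, 219 and 244 in round spermatid-like cells, which overlapped. Elongating spermatid-like cells had 1236, 1180, 822 and 842 CPM, above every value of the other germ classes. The elongating minus round difference was 1.87 ± 0.19, higher in 4 of 4 mice, and the smallest SD of the 9 genes at this step. Barcodes under 200 genes held 438, 601, 523 and 535 CPM, between the round and the elongating levels.

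**Figure D2:**
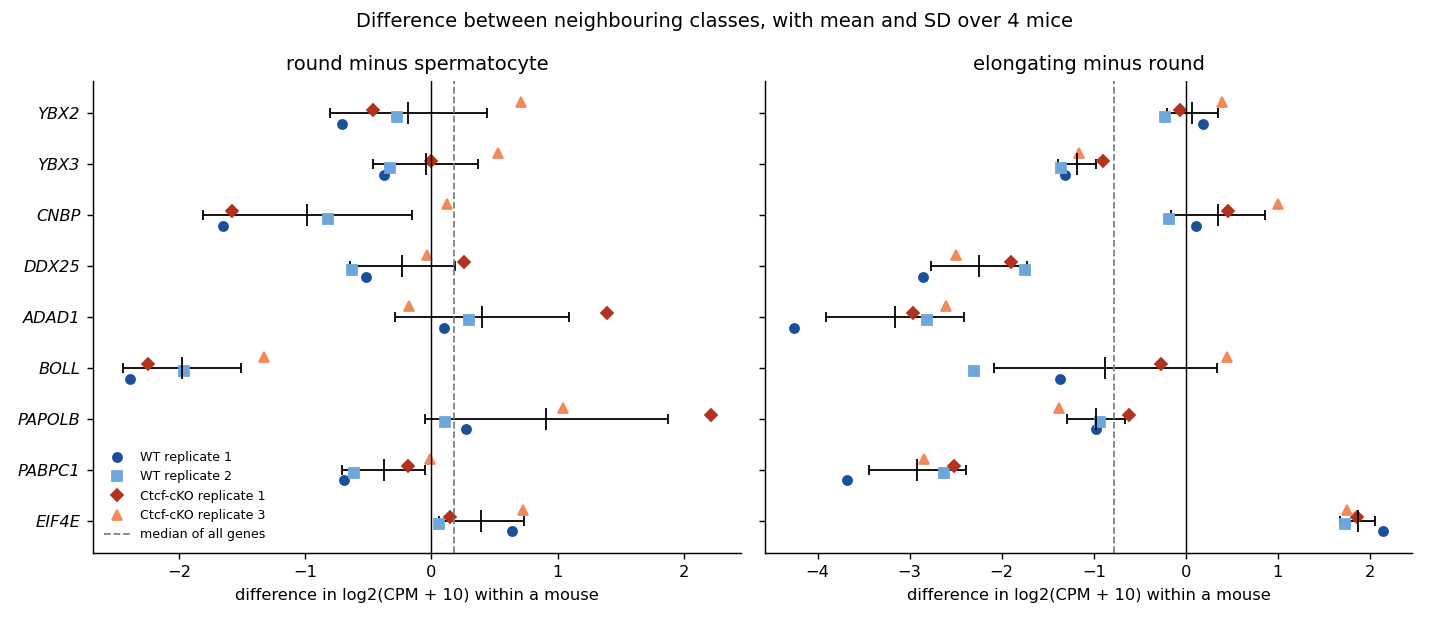
Difference between neighbouring germ classes in log2(CPM + 10) for each gene, with 1 point per mouse, a bar for the mean and SD over 4 mice, and a dashed line at the median of all genes. In the right panel ADAD1, PABPC1 and DDX25 lie left of the dashed line (means of -3.16, -2.92 and -2.25) and EIF4E lies farthest right (1.87).

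The classes were not uniform. Of the clusters that made up the elongating class, cluster 1, led by HBB-BS, TNP2 and TEX37, held YBX3 at 1207, 1332, 1788 and 1519 CPM. Cluster 4, led by GM42418 and 1700027A15RIK and with PRM2 among its leading genes, held YBX3 at 215, 242, 381 and 927 CPM, lower in each mouse. EIF4E in cluster 4 was at 1500, 1549, 821 and 854 CPM, against 1134, 1029, 822 and 835 in cluster 1. Among the round spermatid-like clusters, cluster 9, with EIF5B and LYAR among its leading genes, had PABPC1 at 2186, 1428, 2347 and 2443 CPM, and cluster 2, led by CATSPER4, had 1083, 920, 856 and 1091. DDX25 was likewise higher in cluster 9 (947, 688, 1238 and 1267 CPM) than in cluster 2 (0, 442, 444 and 437), where WT replicate 1 had a single cell. Since cluster 9 held only 7, 31, 5 and 2 cells, its values in the Ctcf-cKO mice rest on few cells. Cluster 2 held 69 of 138 round cells in WT replicate 2, 23 of 37 in Ctcf-cKO replicate 1 and 8 of 12 in Ctcf-cKO replicate 3, and cluster 8 held 8 of 16 in WT replicate 1.

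Over the 12 sums of mouse and germ class, DDX25, PABPC1, ADAD1 and YBX3 followed each other and EIF4E ran against them. Pearson's r of log2(CPM + 10) was 0.987 for DDX25 with PABPC1, 0.961 for DDX25 with ADAD1, 0.943 for YBX3 with PABPC1 and -0.948 for EIF4E with PABPC1. Sums from the same library share its depth, and classes share the shift between stages, so these are descriptions. Among 5452 genes, the most alike to PABPC1 were LYAR (0.996), STPG4 (0.989) and 1700010I14RIK (0.988), and to YBX3 they were MNS1 (0.986), TBPL1 (0.979) and HSPA2 (0.977). LYAR was also close to DDX25 (0.986), with a gene whose symbol had been turned into a date as its other neighbour (0.979). ADAD1 was most like IFT43 (0.980), 1700020D05RIK (0.977) and TCTEX1D2 (0.971). BOLL was most like PCBP2 (0.960), SBNO1 (0.954) and SAV1 (0.953), and EIF4E like GM4875 (0.960), GM20163 (0.948) and H2AL2A (0.948). Neighbours were looser for CNBP (DPM1 0.921, MTX2 0.921, RBM17 0.918), PAPOLB (4933405L10RIK 0.898, REEP2 0.891, YIPF3 0.881) and YBX2 (IFT52 0.866, ATP5K 0.855, ATP6V1E1 0.854).

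The question of the study's design is what loss of Ctcf changes, so sums of each class were compared between genotypes with edgeR. None of the 9 genes was called in spermatocyte-like, round or elongating spermatid-like cells at an adjusted p of 0.05. Across all genes, 0% of 3518 were called in spermatocyte-like and 0% of 6358 in round spermatid-like cells, with 215 (6.11%) and 226 (3.55%) below 0.05 before adjustment. DESeq2 called 65 and 6 genes in these classes, and none of the 9. In elongating spermatid-like cells 16.5% of 3330 genes were called, 449 higher and 99 lower in Ctcf-cKO mice. Clusters made without batch correction gave 0 calls in that class, so no call in elongating cells was kept without that step. The class then held 66, 88, 16 and 17 cells, so its cells and counts had changed too. Which of these changes removed the calls was not tested. BOLL did not pass the filter on low counts there, so 8 of the 9 genes were tested in that class and 9 in the others.

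In spermatocyte-like cells all 9 log2 fold changes of Ctcf-cKO over WT lay below 0, with a median of -0.47 against -0.05 over all genes tested. Of all genes tested, 47.7% lay above 0. Leaving out 1 mouse could bring the values of YBX2, YBX3, CNBP and EIF4E above 0. The largest of the 9 in size was that of PAPOLB (-1.17, SE 0.70, adjusted p = 0.974), where Ctcf-cKO replicate 1 had 112 CPM and the other mice 488 to 645. Its interval ran from -2.88 to 0.54. In these cells the 62 markers of somatic and red blood cells summed to 256, 524, 12410 and 8119 CPM, with 6, 33, 39 and 29 detected, and the 24 spermatocyte markers to 9426, 6502, 4859 and 2381 CPM, so the Ctcf-cKO mice were higher in the former and lower in the latter. Their part in the values below 0 was not tested. In round spermatid-like cells DDX25 (0.02, SE 0.33), PAPOLB (0.00, SE 0.36), ADAD1 (0.00, SE 0.40), YBX2 (0.09, SE 0.40) and YBX3 (0.09, SE 0.33) had values near 0 whose sign changed with the setting, with adjusted p of 0.9985 to 0.9992. The 95% interval of DDX25 ran from -0.72 to 0.76 and that of PABPC1 (-0.14, SE 0.33) from -0.89 to 0.61. The values in each mouse overlapped between genotypes for YBX2, DDX25, PAPOLB, ADAD1, CNBP and PABPC1. YBX3 was higher in both Ctcf-cKO mice (2736 and 2936 CPM) than in both WT mice (2324 and 2622 CPM), without passing the test. BOLL (-0.82, SE 0.83) and EIF4E (-0.54, SE 0.40, adjusted p = 0.9985) were lower in both Ctcf-cKO mice than in both WT mice, without passing the test. How many of all genes were separated in this way was not counted.

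EIF4E came closest to a call in elongating spermatid-like cells. Its sums were 1323 of 1070413 counts in WT replicate 1, 286 of 242334 in WT replicate 2, 298 of 362550 in Ctcf-cKO replicate 1 and 221 of 262568 in Ctcf-cKO replicate 3. Exact Poisson intervals, which cover counting error only, were 1170 to 1304 and 1047 to 1325 CPM in WT and 731 to 921 and 734 to 960 CPM in Ctcf-cKO. Both Ctcf-cKO mice lay below both WT mice, with a log2 fold change of -0.64 (SE 0.26, 95% interval -1.16 to -0.13, unadjusted p = 0.0144, adjusted p = 0.0772). An unadjusted p under 0.05 was reached by 26.7% of the genes tested in this class. The fold change stayed below 0 under all 16 alternatives run, with values from -0.92 to -0.16, and none passed the threshold.

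CNBP (0.67, SE 0.39, adjusted p = 0.273), YBX3 (0.41, SE 0.25, adjusted p = 0.321), YBX2 (0.35, SE 0.26, adjusted p = 0.408) and ADAD1 (0.97, SE 0.78, adjusted p = 0.467) had positive values in elongating cells. PABPC1 (0.38, SE 0.37) and DDX25 (0.16, SE 0.44) were positive too and PAPOLB was at -0.09 (SE 0.30), and none of these passed the test. As for EIF4E, the genotypes did not overlap for YBX2, YBX3, CNBP, ADAD1 and PABPC1, which were higher in both Ctcf-cKO mice, opposite to EIF4E. ADAD1 rested on few counts in these cells, 26 in WT and 32 in Ctcf-cKO mice. The share of all genes separated in this way was not counted, so no background can be set beside these genes. Scaling by library totals alone moved the median of all genes in this class from -0.005 to 0.10, and the value of PAPOLB to 0.02. RNA of other cell types also differed between genotypes in this class. The summed level of 62 markers of somatic and red blood cells was 151 and 281 CPM in elongating cells of WT mice, with 20 and 13 of them detected, and 11870 and 6813 CPM in Ctcf-cKO mice, with 46 detected in each. The red blood cell markers were at 1.87 and 0 CPM in WT and 7218 and 1211 CPM in Ctcf-cKO. The part of this RNA in the differences above was not tested.

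The genotype difference in elongating cells was also set against that in round cells, in 1 fit with the mouse as a block. None of 6629 genes passed (236 had an unadjusted p under 0.05; DESeq2 was not run), so the stages were not shown to differ in their response. For EIF4E the difference between stages was -0.47 (SE 0.81, interval -2.06 to 1.11), and for ADAD1 it was 0.69 (SE 0.83, interval -0.94 to 2.31).

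**Figure D3:**
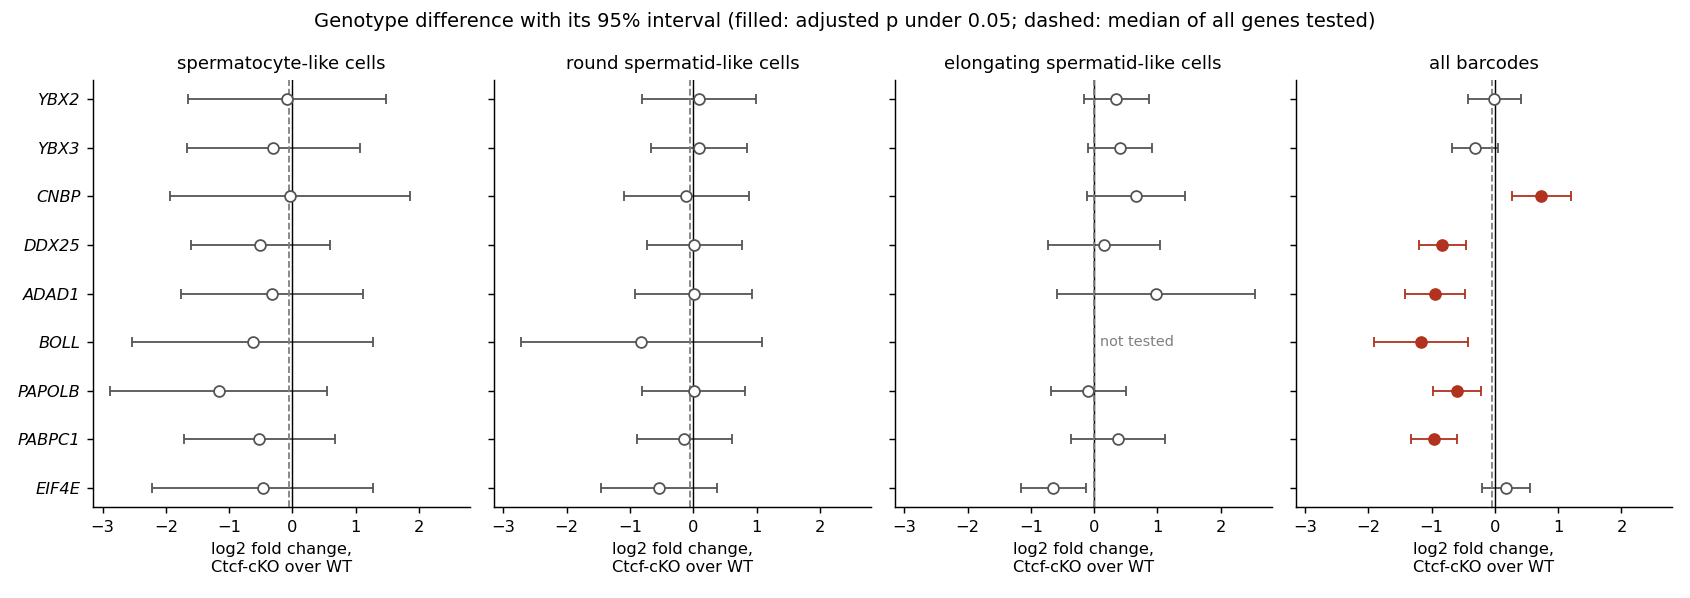
Log2 fold change of Ctcf-cKO over WT for each gene in 3 germ classes and in all barcodes, with 95% intervals from edgeR, filled points where the adjusted p is under 0.05 and a dashed line at the median of all genes tested. All points are open in the 3 classes, and 6 are filled in the sums of all barcodes: DDX25, ADAD1, BOLL, PAPOLB and PABPC1 left of 0 and CNBP right of it.

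Summed over every barcode of a library, without regard to cell type, 5 of the 9 genes were lower in Ctcf-cKO mice and 1 was higher. In this comparison 10.1% of 14552 genes were called lower and 18.4% higher, and the shares of the 9 genes were 55.6% and 11.1%. Before adjustment, 6 of the 9 and 40.1% of all genes were below 0.05. In such sums fewer cells of a type and less RNA per cell cannot be told apart.

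PABPC1 was at 1542 and 1299 CPM in WT against 682 and 711 CPM in Ctcf-cKO mice, and the genotypes did not overlap. Its log2 fold change was -0.96 (SE 0.17, adjusted p = 0.00142). DDX25 had 635 and 593 against 324 and 336 CPM, a value of -0.83 (SE 0.17, adjusted p = 0.00438). ADAD1 had 337 and 255 against 167 and 126 CPM, a value of -0.94 (SE 0.22, adjusted p = 0.00743). These are the genes with the lowest elongating minus round differences.

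PAPOLB had 704 and 614 against 394 and 440 CPM (-0.59, SE 0.17, adjusted p = 0.0244). BOLL, highest in spermatocyte-like cells, had 361 and 325 against 86 and 29 counts, which is 53.9 and 66.9 against 32.4 and 18.2 CPM (-1.16, SE 0.34, adjusted p = 0.0244). CNBP rose, from 126 and 165 CPM to 237 and 225 (0.73, SE 0.21, adjusted p = 0.0238). It is expressed in many cell types, and somatic-like cells held it at 147, 373, 349 and 293 CPM. YBX2 (985 and 1358 against 1106 and 1130 CPM; -0.01, adjusted p = 0.980), YBX3 (-0.32, adjusted p = 0.175) and EIF4E (0.18, adjusted p = 0.489) were not called.

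With 2 mice per genotype, the calls depended more on the Ctcf-cKO than on the WT mice, and those of PABPC1, DDX25, ADAD1 and PAPOLB held without either WT mouse. Without Ctcf-cKO replicate 3 all 6 were lost, with adjusted p between 0.0636 and 0.184, and without Ctcf-cKO replicate 1 those of DDX25, PAPOLB, CNBP and PABPC1 were lost, with 0.111, 0.266, 0.207 and 0.0775, while no value changed sign. Without WT replicate 1, CNBP was lost (0.0636), YBX2 was called lower (-0.28, 0.0457) and YBX3 was called lower (-0.48, 0.000323), and without WT replicate 2, BOLL was lost (0.0537). Over these 4 settings the fold change ranged from -0.88 to -0.83 for DDX25, -1.09 to -0.90 for PABPC1, -0.70 to -0.54 for PAPOLB, -1.19 to -0.77 for ADAD1, 0.49 to 0.94 for CNBP and -1.69 to -0.84 for BOLL, so that sizes moved little for DDX25, PABPC1 and PAPOLB.

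The makeup of the libraries moved with these results. Somatic-like cells made up 10.4%, 3.32%, 36.8% and 44.7% of cells, and barcodes under 200 genes held 1.57%, 12.1%, 40.8% and 46.9% of all counts. Summed over cells of the 3 germ classes alone, PABPC1 had 910, 1252, 923 and 750 CPM and DDX25 364, 616, 451 and 360 CPM, and the genotypes overlapped. ADAD1 in these cells was at 203, 280, 279 and 154 CPM and BOLL at 32.3, 65.3, 44.3 and 26.4 CPM, and PAPOLB at 539, 612, 409 and 574 CPM, with overlap too. CNBP did not overlap there, at 155, 160, 200.5 and 211 CPM, and was higher in both Ctcf-cKO mice. Their share in the whole-library difference was not tested.

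**Figure D4:**
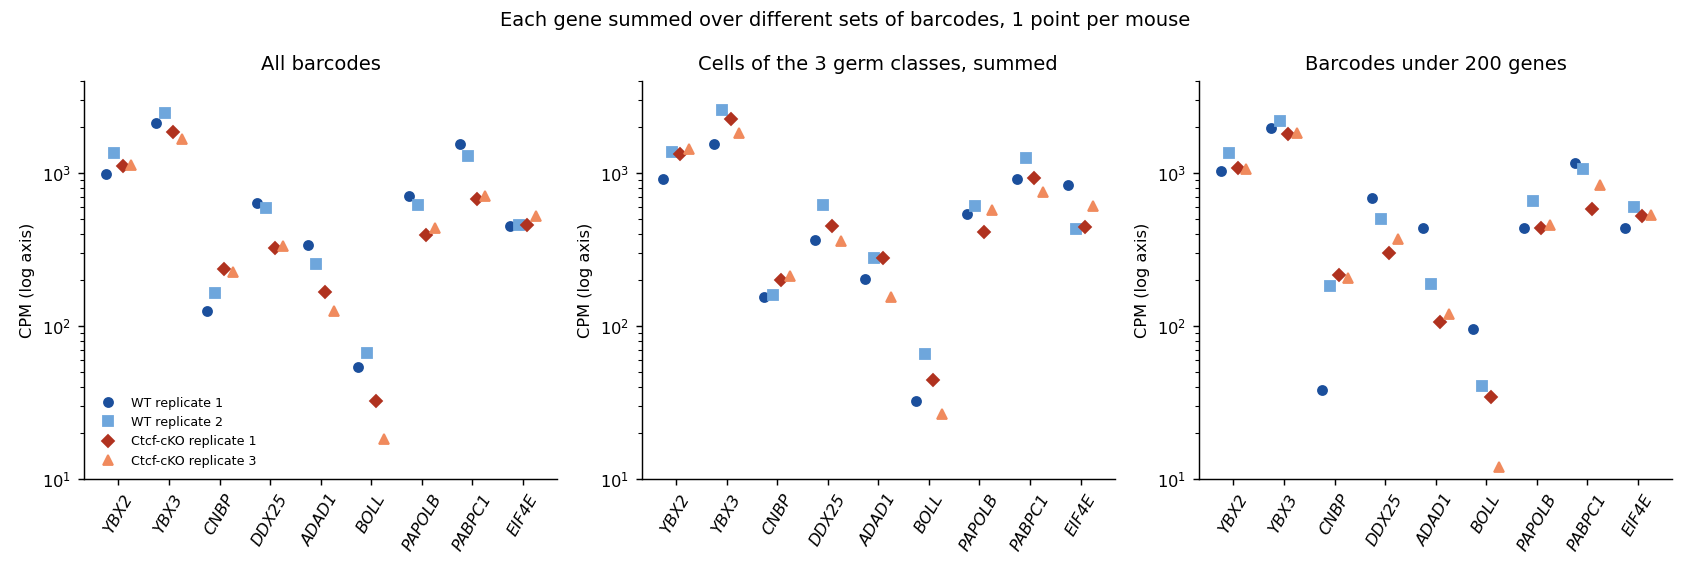
Level of each gene (CPM, log axis) summed over all barcodes, over cells of the 3 germ classes and over barcodes under 200 genes, with 1 point per mouse. Over all barcodes the blue WT points of DDX25, ADAD1, BOLL, PAPOLB and PABPC1 lie above the red Ctcf-cKO points, and over germ cells the colours of these 5 genes overlap, whereas those of CNBP do not.

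A list of 157 symbols of related factors gave the surroundings of the set: other Y-box, DAZ and poly(A)-binding proteins, polyadenylation and deadenylation enzymes, cap-binding and initiation factors, P-body proteins and RNA-binding repressors. In elongating minus round cells, 34 of 72 with enough counts were lower in all 4 mice (47.2%, against 47.0% of all genes) and 7 were higher (9.72%, against 12.3%). The activator CPEB2 was lowest (-3.03 ± 0.46) and the initiation factor EIF4H highest (2.07 ± 0.98), with EIF4A2, the helicase subunit of the cap-binding complex, at 1.28 ± 0.52 and PAIP2, an inhibitor of PABPC1, at 0.67 ± 0.27. These 4 were chosen after their values were seen.

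Between genotypes, edgeR and its adjusted p called none of the related factors in spermatocyte-like or round spermatid-like cells, of 63 and 80 tested, with 1 in each below 0.05 before adjustment. In elongating cells 8 of 42 rose (19.0%, against 13.5% of all genes) and YBX1 fell. YBX1, the broadly expressed Y-box protein, went from 396 and 429 CPM to 119 and 343 (-0.98, SE 0.34, adjusted p = 0.0343). PCBP1, a poly(C)-binding protein, had 5 and 0 against 19 and 15 counts (3.76, SE 0.996, adjusted p = 0.00367). ZFP36L1, which destabilizes AU-rich messages, had 4 and 0 against 14 and 13 counts (3.73, SE 1.03, adjusted p = 0.00592), and DAZAP2, a DAZ-associated protein, had 12 and 1 against 53 and 28 (3.63, SE 0.70, adjusted p = 5.63e-05). These are few counts, and somatic-like cells held PCBP1 at 187 to 272, ZFP36L1 at 119 to 191 and DAZAP2 at 33.9 to 243 CPM. The others that rose, named after their values were seen, were QK, DDX6, ATXN2, PAPOLA and PCBP2.

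Over all barcodes 24 of 139 related factors rose (17.3%, against 18.4% of all genes) and 17 fell (12.2%, against 10.1%), shares near the background. IGF2BP2, a message-binding protein, rose from 13 and 22 counts to 58 and 92 (3.68, SE 0.58, adjusted p = 0.000792). ZFP36 rose from 7.01 and 7.41 to 54.7 and 92.9 CPM (3.41, SE 0.37, adjusted p = 5.25e-05), and TENT5A, a poly(A) polymerase, from 5 and 6 to 25 and 12 counts (3.15, SE 0.83, adjusted p = 0.0146). Among those that fell were factors of germ cells. RBM44, an RNA-binding protein of germ cell bridges, fell from 60.7 and 59.1 to 26.4 and 14.4 CPM (-1.45, SE 0.34, adjusted p = 0.00854), and PABPC6, a relative of PABPC1, from 169 and 162 to 57.7 and 66.5 CPM (-1.35, SE 0.22, adjusted p = 0.00102). EDC3, a P-body protein, fell from 18.5 and 19.8 to 4.52 and 9.41 CPM (-1.45, SE 0.50, adjusted p = 0.0489).

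Messages taken here as stored formed another list, of 21 genes, 11 of which are also markers by which the elongating class was named. Whether each of them is stored was not checked. From round to elongating cells 13 of 20 were higher in all 4 mice (65%, against 12.3% of all genes), among them PRM1 (2.72 ± 1.45). These 13 were DBIL5, PGK2 and the 11 markers, whose rise cannot be separated from the naming of the class. Another 5 were lower (25%, against 47% of all genes). They were ACRV1, CLGN, ACR, LDHC and AKAP3, none of them a marker. Between genotypes, 2 of 20 tested fell in elongating cells, where 2.97% of all genes did, and none rose. TNP1, a transition protein that replaces histones, had 37430 and 45400 against 22210 and 23220 CPM (-0.97, SE 0.25, adjusted p = 0.00274). HMGB4, a chromatin protein of spermatids, had 3923 and 3999 against 1953 and 2236 CPM (-1.03, SE 0.25, adjusted p = 0.0012). The genotypes did not overlap for either. Both are among the markers that named the class.

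Over all barcodes 4 of the 21 messages on this list fell (19.0%, against 10.1% of all genes) and 1 rose (4.76%, against 18.4%). ACRV1 (587 and 519 against 244 and 244 CPM; -1.11, adjusted p = 0.000894), ACR (303 and 256 against 129 and 124 CPM; -1.08, adjusted p = 0.002) and CLGN (409 and 448 against 215 and 200 CPM; -0.98, adjusted p = 0.00259) fell. They encode acrosomal proteins and a chaperone of the endoplasmic reticulum, and, as DDX25, ADAD1 and PABPC1, were lower in elongating than in round cells of all 4 mice. LDHC, a sperm lactate dehydrogenase, also fell, by 0.50 on the log2 scale. TNP2, the other transition protein, rose from 10600 and 11970 to 15300 and 15350 CPM (0.50, SE 0.14, adjusted p = 0.0216).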

How the data were processed

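ddSEQ 3′ libraries of 4 mice had been sequenced on a NextSeq, and the authors' notes name GRCm38 as the genome. The deposited tables hold raw counts, whole numbers for each gene symbol and barcode of a mouse. The counting tool, and whether reads of a molecule were merged, are not given in the sources used here. Total counts were 6701235 and 4859455 (WT) and 2652665 and 1593546 (Ctcf-cKO). The tables hold many more barcodes than cells. Intervals and floors cover counting error only.

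Cells that passed the limits above were normalized and clustered in Seurat 5.3.0 (R 4.3.3; 2000 features, 15 principal components, resolution 0.9), with the Harmony correction for mouse rewritten from its description. A class name needed at least 3 markers of a list higher in the cluster and a mean log2 difference of the list above 0.25. The unnamed cluster had 5 of 24 spermatocyte markers higher, with a mean of 0.10. Scrublet (Scanpy 1.11.5) called 9, 6, 22 and 17 doublets, which stayed in. For each class, sums over at least 5 cells of a mouse were tested two-sided in edgeR 4.0.16 by the quasi-likelihood F test, after TMM scaling and filterByExpr, with Benjamini-Hochberg adjustment over all genes tested. The SE was |log2 fold change| divided by the root of F. The study's tests took cells as replicates and were not followed. In tests on simulated data with 200 changed genes, a log2 change of 1 was found in 0, 0, 11 and 18, and one of 2 in 4, 59, 116 and 113, for spermatocyte-like, round spermatid-like, elongating spermatid-like cells and all barcodes.

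The genes, the lists and the tests were chosen with earlier results of these data known. Of each list, up to 3 rises and 3 falls were named per comparison, by size among those called, and for each of the 9 genes the 3 with the highest correlation. The comparison of genotype differences between stages was added after seeing the data. Of 157 related symbols, some of them older aliases, 149 were listed. Positions and transcripts came from GENCODE M21, matches from BLAST 2.17.0, promoters from RefSeq. Alternatives were DESeq2 1.42.0, other scalings and filters, each mouse left out, a limit of 5 times the plateau and no Harmony. Others were resolutions of 0.5 and 1.3, doublets left out, free RNA subtracted, and the 9 genes and related factors kept in clustering.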

Additional observations from a re-analysis of the deposited data

How the results depend on the processing

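There were 2 mice per genotype and few cells in some classes. The log2 change of 1 simulated in spermatocyte-like and round spermatid-like cells was not found for any gene, so changes of that size could be missed. Depth, number of mice and spread between mice were not varied in the simulation, so their parts cannot be told apart. No paired analysis was possible because the labels do not pair a WT mouse with a Ctcf-cKO mouse. Over all alternatives, the log2 fold changes of the 9 genes kept their direction in 116 of 123 values in spermatocyte-like, 110 of 143 in round spermatid-like, 115 of 127 in elongating spermatid-like cells and 87 of 90 in all barcodes. Spermatocyte-like cells with 5 times the plateau or without batch correction were not run, since a mouse then had 4 cells.

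Genes called in spermatocyte-like cells, 0 in the report, numbered 65 with DESeq2, 65 with no filter on low genes, 37 with the 9 genes kept in clustering and 0 to 106 without 1 mouse. In round spermatid-like cells, also 0, they numbered 6 with DESeq2, 3 with library totals alone, 32 with no filter and 0 to 186 without 1 mouse. In elongating cells the 548 became 353 with DESeq2, 62 with at least 10 counts in every sum, 320 with doublets left out, 0 without batch correction and 296 to 502 without 1 mouse, the lowest without Ctcf-cKO replicate 3. Over all barcodes the 4150 became 1709 to 4444 without 1 mouse, with 1709 and 1989 without Ctcf-cKO replicates 1 and 3.

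Values that changed sign were near 0 in most cases. In spermatocyte-like cells ADAD1 was 0.28 with the 9 genes and related factors kept in clustering. In round spermatid-like cells with no filter, YBX2 was -0.11, YBX3 -0.10, DDX25 -0.16, PAPOLB -0.18 and ADAD1 -0.17. With at least 10 counts in every sum DDX25 was -0.022, PAPOLB -0.057 and ADAD1 -0.010. With 5 times the plateau DDX25 was -0.019 and ADAD1 -0.054. Without batch correction DDX25 was -0.084, PAPOLB -0.064, ADAD1 -0.12 and EIF4E 0.028. With the 9 genes and related factors kept in clustering DDX25 was -0.045, PAPOLB -0.0099 and ADAD1 -0.069. PAPOLB was -0.051 with doublets left out and -0.014 with free RNA subtracted. In elongating cells without batch correction YBX3 was -0.66, DDX25 -0.12, CNBP -0.32 and PABPC1 -2.73. DDX25 was -0.093 with no filter, -0.058 with 5 times the plateau and -0.069 at resolution 0.5. PAPOLB was 0.016 with library totals alone, 0.093 with at least 10 counts in every sum and 0.065 with doublets left out. Over all barcodes YBX2 was 0.037 with at least 10 counts, and EIF4E -0.025 over barcodes passing the gene and mitochondrial limits. The cause of these changes was not tested.

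Leaving out 1 mouse, values ranged in spermatocyte-like cells from -1.47 to 0.48 for YBX2, -1.11 to 0.031 for YBX3, -1.96 to 0.62 for CNBP and -1.36 to 0.19 for EIF4E. In round spermatid-like cells they ranged from -0.41 to 0.63 for YBX2, -0.20 to 0.28 for YBX3, -0.097 to -0.022 for DDX25, -0.41 to 0.19 for PAPOLB, -0.59 to 0.28 for ADAD1 and -0.41 to 0.051 for CNBP. DDX25 ranged from -0.33 to 0.42 in elongating cells, and YBX2 from -0.28 to 0.24 over all barcodes. BOLL over all barcodes lost its call among barcodes passing the gene and mitochondrial limits (-1.02, adjusted p = 0.0656), and CNBP lost its call with no filter (0.59, adjusted p = 0.056).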
